A study of Mus musculus with 22 samples.

Results

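The postsynaptic density scaffold genes are the 9 genes Dlg1, Dlg2, Dlg3, Dlg4, Dlgap1, Shank1, Shank2, Shank3 and Homer1, whose proteins form the framework beneath the receptors of excitatory synapses. Their transcripts were measured in the hippocampus of TgproNGF#3 and WT mice on Agilent mouse arrays. A probe was counted as a member where the scanner output tied it to a RefSeq transcript of one of these genes, which gave 20 probes of 9 genes, out of 55681 non-control probes and 21119 genes with a symbol on the array. Homer1 had 5 probes, Dlgap1 and Shank1 had 3 each, Dlg1, Dlg2 and Shank3 had 2 each, and Dlg3, Dlg4 and Shank2 had 1 each.

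TgproNGF#3 mice express a mouse proNGF that furin cannot cleave, followed by an IRES and EGFP, under the neuronal Thy1.2 promoter. They come from a single founder line on a C57Bl/6xDBA/2 background, and WT mice of the corresponding age served as controls. The right hippocampus of untreated mice was taken at 1 month (4 TgproNGF#3 and 4 WT males), 3 months (4 and 4 males) and 12 months (3 and 3 females), with 1 mouse per array. The arrays of an age, of both genotypes, lay on 1 slide, so the effects of age and slide cannot be told apart, nor those of sex where the 12-month mice are set against the younger ones. Within a slide, genotype coincided with the array column at 1 month and largely with the array row at 12 months. All 20 probes were well above background on all 22 arrays, and no spot was saturated.

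In the postsynaptic density, membrane-associated guanylate kinases of the Dlg family hold glutamate receptors and adhesion molecules through their PDZ domains. Dlgap1 binds these kinases from below and hands over to the Shank proteins, which in turn bind Homer. Homer1 links Shank to metabotropic glutamate receptors and to calcium stores, and the gene also makes short forms, induced by neuronal activity, that lack the coiled coil through which the long forms join. In the hippocampus these proteins are found in the dendritic spines of pyramidal and granule neurons.

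RefSeq promoter windows of 300 bases around annotated starts (mouse build GRCm38.p6) were given for 7 of the 9 genes, 17 windows in all, and not for Shank1 and Shank2. The windows of Homer1 and Dlg4 are shown because a probe of each was lower in TgproNGF#3 mice at 3 months, and of each gene the start with the most matches to the core of the cAMP response element (TGACG, read on both strands) was taken. The capitals mark these matches. Homer1 lies at chr13:93303757-93405129 and Dlg4 at chr11:70017203-70045535. The Homer1 window, chr13:93303507-93303806 on the plus strand, held 3 matches, and the Dlg4 window, chr11:70023732-70024031 on the plus strand, held 1.
Homer1: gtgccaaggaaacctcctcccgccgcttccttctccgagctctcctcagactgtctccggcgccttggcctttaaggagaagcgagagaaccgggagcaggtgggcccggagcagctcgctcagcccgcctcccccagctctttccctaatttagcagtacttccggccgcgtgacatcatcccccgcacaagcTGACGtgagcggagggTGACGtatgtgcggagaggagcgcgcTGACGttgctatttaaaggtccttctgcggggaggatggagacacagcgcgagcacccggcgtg
Dlg4: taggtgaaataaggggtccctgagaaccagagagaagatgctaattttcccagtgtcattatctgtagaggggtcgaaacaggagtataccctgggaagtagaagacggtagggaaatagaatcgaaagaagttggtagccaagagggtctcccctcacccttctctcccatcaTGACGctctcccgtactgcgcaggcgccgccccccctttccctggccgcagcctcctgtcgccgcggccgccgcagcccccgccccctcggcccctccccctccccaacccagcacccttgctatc
The core was present in 3 of the 17 member windows (17.6%) and in 20.8% of all 32851 windows. A window with at least 3 matches was less common, with 1.03% of all windows. The full palindrome TGACGTCA, which contains the core on each strand, was in none of the member windows and in 1.79% of all windows. These matches are letters in a window and say nothing of binding.

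Levels are log2 intensities from which the 75th percentile of each array was subtracted, so that 0 is the intensity below which 75% of the spots kept on that array lay. Log2 FC is the mean level of TgproNGF#3 minus that of WT, tested with limma. A probe was called when its unadjusted p was below 0.05 and its Log2 FC lay beyond 1 in either direction, and the Benjamini-Hochberg adjusted p over all probes tested is given beside it. The exact permutation test over mice cannot go below p = 0.0286 with 4 mice against 4, or below 0.1 with 3 against 3.

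At 3 months 6 of the 20 probes were called lower and none higher: 3 of Homer1, 2 of Shank1 and the probe of Dlg4. Of all 33593 probes tested at that age, 6.12% were called lower and 0.643% higher. The groups did not overlap, with TgproNGF#3 lower, at 9 of the 20 scaffold probes and at 14.6% of all probes. The adjusted p was below 0.05 at 4 scaffold probes, all lower, and at 6.85% of all probes in that direction. Log2 FC was below 0 at 19 of the 20 scaffold probes, with a median of -0.51 beside -0.12 over all probes. When dim spots counted towards the percentile used for scaling, the median of all probes moved to 0.00 and that of the scaffold probes to -0.38, and 16 of the 20 lay below 0. These probes share mice and several share a gene, so they are not independent. In bulk tissue, fewer cells of a type and less RNA per cell cannot be told apart.

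At 1 month no scaffold probe was called, beside 0.328% of 40536 probes called lower and 0.242% called higher. The median Log2 FC was -0.04 over the scaffold probes and 0.07 over all probes. At 12 months again none was called, beside 0.992% of 34064 probes called lower and 0.311% higher. The median was 0.12 over the scaffold probes and 0.01 over all probes. Log2 FC ranged from -0.55 to 0.38 over the 20 probes at 1 month and from -0.25 to 0.41 at 12 months. With the other filters and scalings tried, the scaffold median lay between -0.11 and 0.02 at 1 month and between 0.04 and 0.27 at 12 months, where 2 to 9 of the 20 probes were below 0, so no direction is read at these ages. At an unadjusted p below 0.05, 1 scaffold probe was lower at 1 month, 9 were lower at 3 months and 3 were higher at 12 months. The shares of all probes at that threshold and in these directions were 1.31%, 19.7% and 3.11%.

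**Figure D1:**
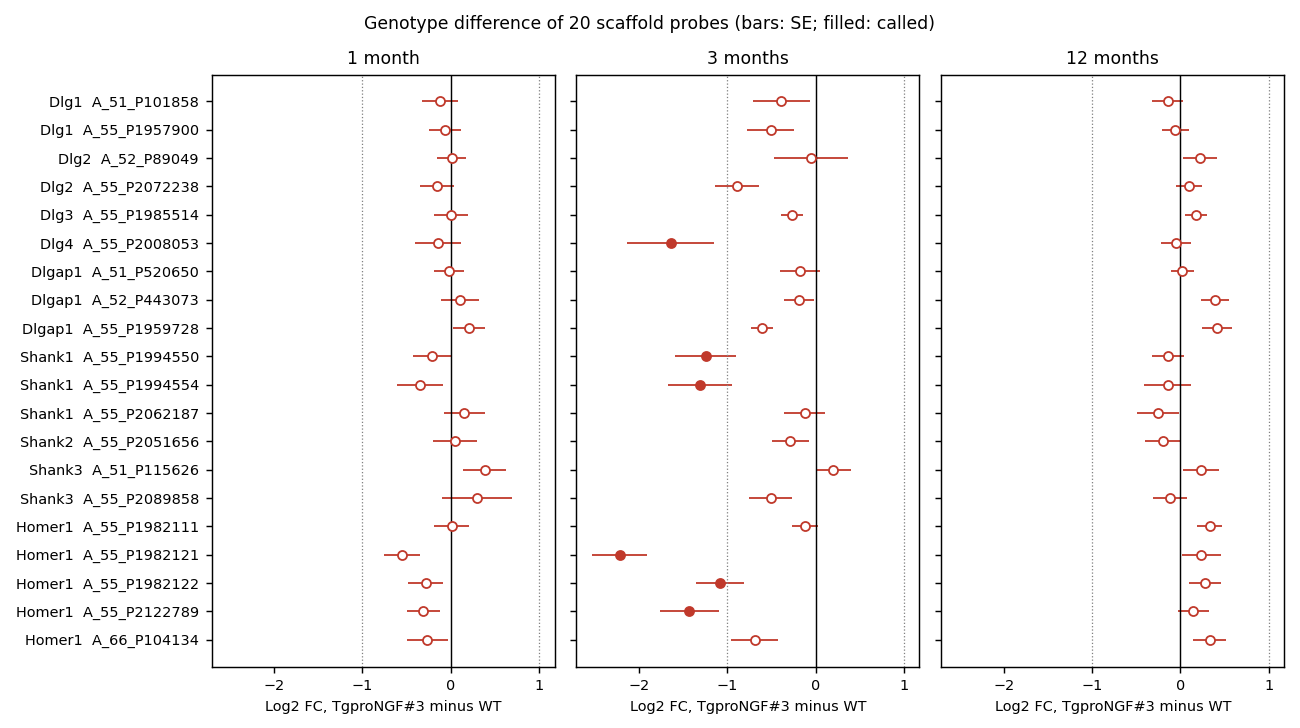
Log2 FC (TgproNGF#3 minus WT) of the 20 scaffold probes at 1, 3 and 12 months. Points are estimates, bars their SE, filled points the called probes and dotted lines a Log2 FC of 1 in either direction. All 6 filled points lie in the 3-month panel, between -2.22 and -1.09.

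Among the guanylate kinases, Dlg4, which encodes the most abundant scaffold of the excitatory postsynapse, had the largest difference. At 3 months its probe A_55_P2008053 read 0.36, 0.80, -1.26 and 0.00 in the 4 TgproNGF#3 mice. It read 0.82, 2.10, 2.52 and 1.03 in the 4 WT mice. The groups did not overlap, although the highest TgproNGF#3 mouse (0.80) lay just below the lowest WT mouse (0.82), and both groups were widely spread (SD 0.89 and 0.82). Dlg4 was 3.12-fold lower in TgproNGF#3 (Log2 FC -1.64, SE 0.50, unadjusted p = 0.0085, adjusted p = 0.071; exact permutation p = 0.0286). Without TgproNGF#3 mouse 3, the lowest, the Log2 FC was -1.23. At 1 month the Dlg4 levels of the groups overlapped (Log2 FC -0.15, SE 0.26), and at 12 months they did so too (-0.05, SE 0.17).

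The remaining Dlg genes encode relatives of Dlg4 with the same domain order, and none of their probes was called. Dlg3 (A_55_P1985514) read 3.38, 3.20, 3.07 and 3.32 in TgproNGF#3 and 3.59, 3.42, 3.49 and 3.54 in WT mice at 3 months. The 2 groups were tight and did not overlap, although the difference was small (Log2 FC -0.27, SE 0.13, adjusted p = 0.21). At 12 months the order was the other way round: all 3 TgproNGF#3 mice (3.52 to 3.55) lay above the 3 WT mice (3.29 to 3.45), with a Log2 FC of 0.18 (SE 0.13, adjusted p = 0.63).

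The 2 probes of Dlg2, both designed on the same transcript, gave different values at 3 months. The brighter A_52_P89049 read 0.64, 0.72, -0.23 and 0.02 in TgproNGF#3 and -0.77, 1.35, 0.73 and 0.06 in WT mice, with full overlap (Log2 FC -0.05, SE 0.42). The dimmer A_55_P2072238 read -4.89, -4.37, -4.82 and -5.24 in TgproNGF#3 and -4.33, -3.54, -3.60 and -4.30 in WT mice. Its groups did not overlap, and it fell just short of the fold threshold (Log2 FC -0.89, SE 0.25, adjusted p = 0.058), which it passed without TgproNGF#3 mouse 2 (-1.04), WT mouse 1 (-1.02) or WT mouse 4 (-1.01). The Dlg2 probes differed from each other by 0.84 in Log2 FC (adjusted p = 0.099). Dlg1 overlapped between the groups at both probes: A_55_P1957900 read -1.27, -0.97, -1.33 and -2.17 in TgproNGF#3 and -1.05, -1.08, -0.46 and -1.12 in WT mice (Log2 FC -0.51, SE 0.27, adjusted p = 0.25), and the Log2 FC of A_51_P101858 was -0.39. The Log2 FC of A_55_P1957900 was -0.26 without TgproNGF#3 mouse 4 and -0.35 without WT mouse 3.

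Dlgap1, the adaptor between the guanylate kinases and Shank, was measured by 3 probes on 2 transcripts. The probe of transcript NM_027712, A_55_P1959728, was the 1 of the 3 that passed the adjusted threshold at 3 months and is described in full because of that value. It read -1.28, -1.18, -1.37 and -1.52 in TgproNGF#3 and -0.73, -0.72, -0.69 and -0.78 in WT mice. The WT mice lay close together and all TgproNGF#3 mice lay below them (Log2 FC -0.61, SE 0.13, adjusted p = 0.022), which is under the fold threshold. At 12 months the same probe was higher in all 3 TgproNGF#3 mice (Log2 FC 0.41, SE 0.17, adjusted p = 0.55).

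The brightest Dlgap1 probe, A_51_P520650 on NM_177639, read 1.09, 1.26, 1.29 and 0.26 in TgproNGF#3 and 1.23, 1.13, 1.20 and 1.04 in WT mice at 3 months. TgproNGF#3 mouse 4 was far below the other mice and the remaining values overlapped (Log2 FC -0.18, SE 0.23, adjusted p = 0.65), and without that mouse the Log2 FC was 0.06. The other probe of NM_177639, A_52_P443073, gave a Log2 FC of -0.19 at 3 months and 0.39 at 12 months (adjusted p = 0.50 and 0.55).

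Shank1, one of the large Shank scaffolds that join Dlgap and Homer proteins, was measured by 3 probes on 1 transcript. A_55_P1994550 read -4.07, -3.27, -2.85 and -4.46 in the TgproNGF#3 mice of 3 months and -1.93, -2.71, -2.63 and -2.39 in the WT mice (Log2 FC -1.25, SE 0.34, unadjusted p = 0.0052, adjusted p = 0.055). A_55_P1994554 read -2.69, -1.68, -2.21 and -3.00 in TgproNGF#3 and -0.22, -1.5, -1.68 and -0.96 in WT mice (Log2 FC -1.31, SE 0.37, unadjusted p = 0.0056, adjusted p = 0.057). At both probes TgproNGF#3 mice 1 and 4 lay far below all WT mice and mice 2 and 3 lay closer to them, and at the latter probe the groups met at -1.68. The third probe, A_55_P2062187, read -3.44, -3.14, -2.47 and -3.47 in TgproNGF#3 and -2.90, -2.95, -3.34 and -2.83 in WT mice, with overlap (Log2 FC -0.12, SE 0.23, adjusted p = 0.77). Without TgproNGF#3 mouse 4 the Log2 FC of A_55_P1994550 was -0.98 and it was no longer called, whereas A_55_P1994554 remained called at -1.11.

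Shank2 and Shank3, relatives of Shank1 with the same place in the scaffold, were not called at any age. Shank2 (A_55_P2051656) read -6.17, -5.32, -5.96 and -5.89 in TgproNGF#3 and -5.29, -5.85, -5.67 and -5.38 in WT mice of 3 months (Log2 FC -0.29, SE 0.21, adjusted p = 0.41). Shank3 had the only positive Log2 FC of the 20 probes at 3 months: A_51_P115626, which is printed in 10 spots per array, read 0.91, 1.61, 1.41 and 0.99 in TgproNGF#3 and 1.25, 1.11, 0.70 and 1.06 in WT mice (Log2 FC 0.20, SE 0.20, adjusted p = 0.55). The other Shank3 probe, A_55_P2089858, gave a Log2 FC of -0.51 (SE 0.24, adjusted p = 0.21) with overlapping groups, and -0.30 without TgproNGF#3 mouse 4.

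Homer1 had the widest range of Log2 FC within a gene at 3 months. A_55_P1982121, on transcript NM_011982, read -4.97, -4.39, -4.19 and -5.75 in the TgproNGF#3 mice of 3 months and -2.44, -2.90, -2.48 and -2.61 in the WT mice. The highest TgproNGF#3 mouse (-4.19) lay far below the lowest WT mouse (-2.90). The probe was 4.65-fold lower (Log2 FC -2.22, SE 0.31, unadjusted p = 4.5e-05, adjusted p = 0.0046; exact permutation p = 0.0286). It was also the only scaffold probe at 1 month with an unadjusted p below 0.05: it read -2.93, -3.33, -3.11 and -3.27 in TgproNGF#3 and -2.84, -2.73, -2.12 and -2.73 in WT mice. The groups did not overlap, as at 1.33% of all probes in that direction at 1 month, and the difference did not pass after adjustment (Log2 FC -0.55, SE 0.20, unadjusted p = 0.020, adjusted p = 1.00).

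The other probes of NM_011982 were also lower at 3 months. A_55_P2122789 read -2.64, -2.17, -2.05 and -3.59 in TgproNGF#3 and -0.89, -1.72, -1.12 and -1.02 in WT mice (Log2 FC -1.43, SE 0.33, adjusted p = 0.032). A_55_P1982122 read -2.44, -2.17, -2.01 and -3.24 in TgproNGF#3 and -1.15, -1.79, -1.20 and -1.36 in WT mice (Log2 FC -1.09, SE 0.27, adjusted p = 0.040). Neither pair of groups overlapped, and TgproNGF#3 mouse 4 was the lowest in each. Without it the Log2 FC was -1.91 at A_55_P1982121, -1.10 at A_55_P2122789 and -0.83 at A_55_P1982122, which was then no longer called.

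Of the 2 probes of transcript NM_147176, neither was called at any age. A_55_P1982111, the brightest Homer1 probe, read 0.81, 0.80, 0.59 and 0.60 in TgproNGF#3 and 1.06, 0.57, 0.78 and 0.88 in WT mice of 3 months, with overlap (Log2 FC -0.12, SE 0.15, adjusted p = 0.63). At 12 months it was higher in all 3 TgproNGF#3 mice (1.05, 0.94 and 1.07) than in the WT mice (0.66, 0.57 and 0.84), with a Log2 FC of 0.33 (SE 0.14, unadjusted p = 0.045, adjusted p = 0.55). A_66_P104134 lay between this probe and those of NM_011982, with a Log2 FC of -0.69 at 3 months (SE 0.27, unadjusted p = 0.029, adjusted p = 0.14) and groups that overlapped. It was -0.43 when TgproNGF#3 mouse 4 was left out. With all mice, the Log2 FC of A_55_P1982122 minus that of A_66_P104134 was -0.40. That of A_55_P1982111 minus that of A_66_P104134 was 0.57. The files do not say whether a probe lies in a part shared by the long and short Homer1 forms.

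**Figure D2:**
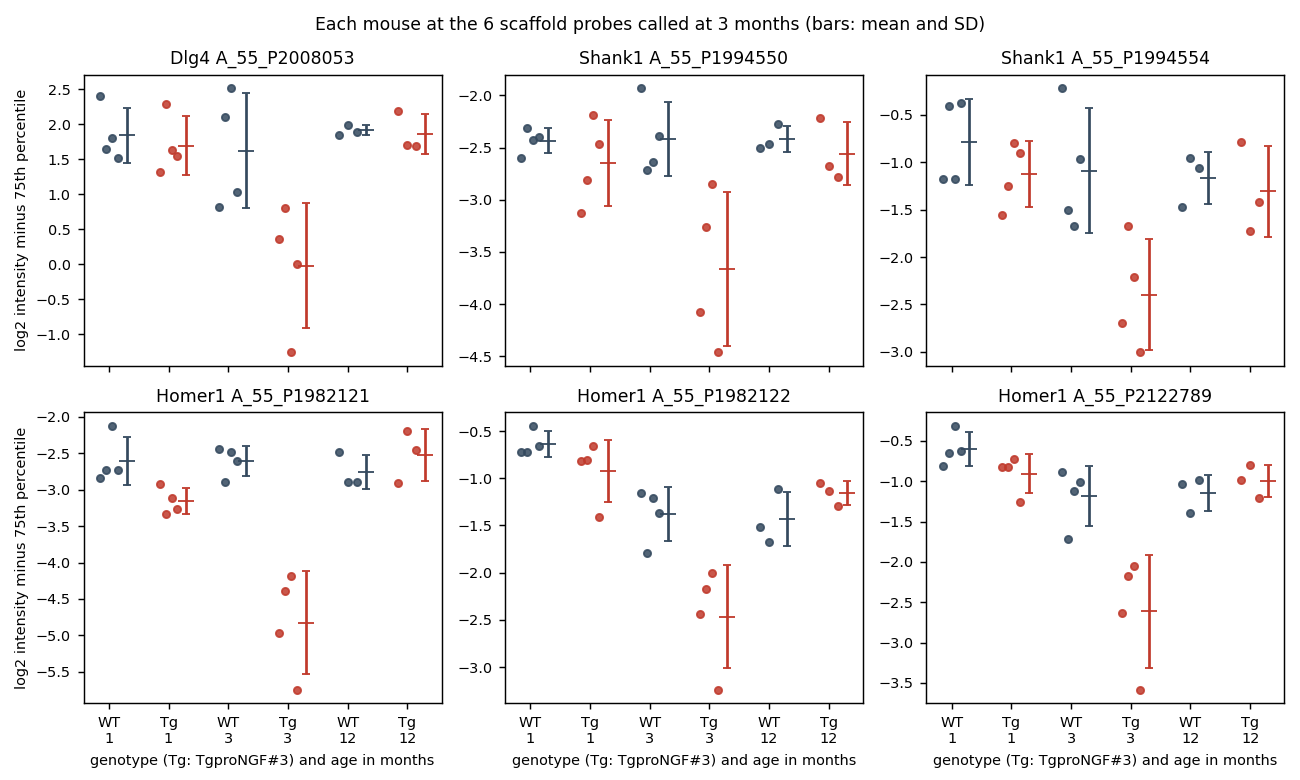
Level of each mouse (log2, 75th percentile of the array subtracted) at the 6 scaffold probes called at 3 months, by genotype and age in months. Points are mice and bars the mean with SD; each panel has its own axis. At all 6 probes the TgproNGF#3 group of 3 months has the lowest mean of the 6 groups.

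Set side by side, probes of 1 gene responded differently at 3 months. For each array, a probe was taken relative to the mean of the other probes of its gene, and this difference was compared between genotypes with limma over the 8193 probes of genes with several probes, of which 10.9% passed an adjusted p below 0.05. Of the 17 scaffold probes in such genes, 4 passed. Homer1 A_55_P1982121 fell by 1.39 more than the mean of the other Homer1 probes (SE 0.14, adjusted p = 0.0046). Homer1 A_55_P1982111 lay 1.24 above the others (SE 0.28, adjusted p = 0.030), and A_66_P104134 lay 0.53 above them (SE 0.10, adjusted p = 0.019). The means of the others included A_55_P1982121 in both cases, so the Homer1 contrasts are not independent. Shank1 A_55_P2062187 lay 1.15 above the other Shank1 probes (SE 0.26, adjusted p = 0.030).

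The contrast between A_55_P1982121 and the other Homer1 probes passed under each of the 18 alternatives run, left-out mice included, and the other 3 contrasts under 11 to 13 of them. With limma's diffSplice, 2 of the 4 passed, both of Homer1. Without TgproNGF#3 mouse 1 or without WT mouse 4 only A_55_P1982121 passed, and without WT mouse 3 it was joined by A_66_P104134. No scaffold probe passed at 1 month or 12 months, where 0% of 9761 and 0% of 8886 probes did.

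Compared pair by pair over the 8 mice of 3 months, the TgproNGF#3 and WT values of the difference between probes did not overlap for 9 of the 10 Homer1 pairs, the exception being the 2 probes of NM_147176 (exact permutation p = 0.11). Of all 5359 pairs of probes of 1 gene on the array, 21.2% did not overlap in this way, and the 10 Homer1 pairs come from only 5 probes. The largest Homer1 gap, between A_55_P1982111 and A_55_P1982121, was 5.53 on average in TgproNGF#3 and 3.43 in WT mice, a difference of 2.10. The 2 called Shank1 probes had nearly the same Log2 FC, differing by 0.06 (exact permutation p = 0.86), and A_55_P1994550 differed from A_55_P2062187 by -1.12 without overlap (exact permutation p = 0.0286). The other called probe, A_55_P1994554, differed from A_55_P2062187 by -1.185 with overlap (exact permutation p = 0.057). Within an age 19 such pairs were compared.

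**Figure D3:**
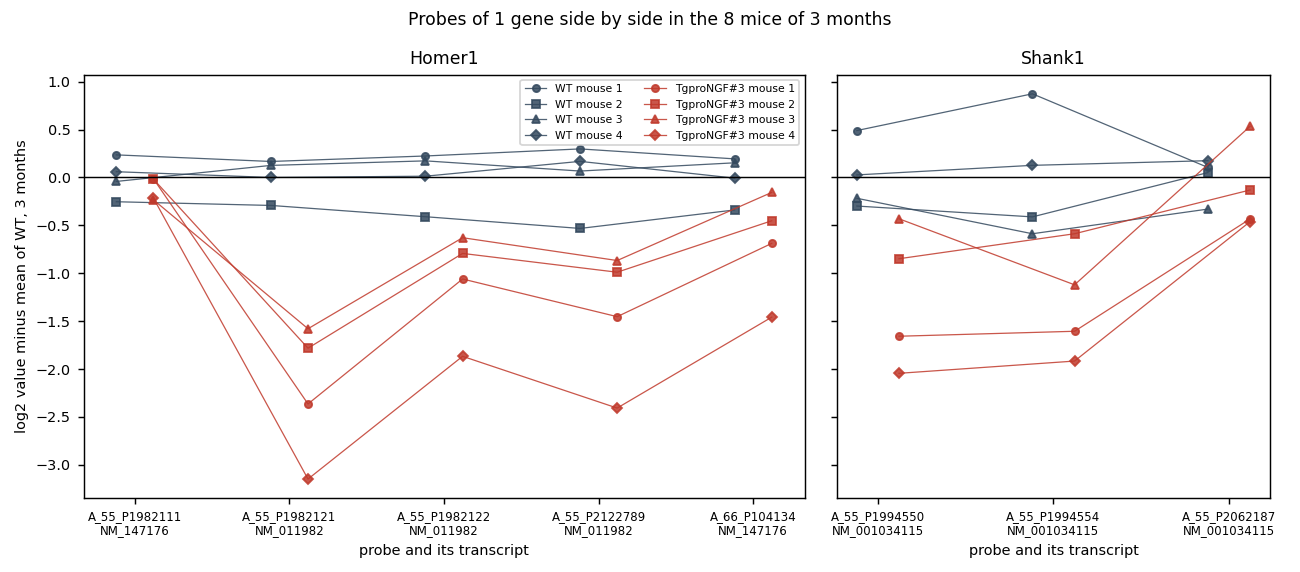
Level of each of the 8 mice of 3 months at the 5 Homer1 and 3 Shank1 probes, on a log2 scale relative to the mean of the 4 WT mice at the same probe, which is 0. Lines join the values of 1 mouse. The TgproNGF#3 mice lie farthest below the WT mice at Homer1 A_55_P1982121 and among them at A_55_P1982111.

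The difference between ages was tested as such over all 22 arrays. The genotype effect was lower at 3 months than at 1 month, with an adjusted p below 0.05, at 2 scaffold probes: Homer1 A_55_P1982121 by -1.67 (SE 0.36, adjusted p = 0.011) and Dlgap1 A_55_P1959728 by -0.81 (SE 0.20, adjusted p = 0.031). Over all probes, 2.82% passed in that direction. It was higher at 12 than at 3 months at 4 scaffold probes, beside 3.63% of all probes. These were Homer1 A_55_P1982121 by 2.46 (SE 0.39, adjusted p = 0.00078), A_55_P2122789 by 1.57 (SE 0.39, adjusted p = 0.022) and A_55_P1982122 by 1.36 (SE 0.34, adjusted p = 0.023), and Dlgap1 A_55_P1959728 by 1.02 (SE 0.22, adjusted p = 0.0088). For Dlg4 the corresponding differences were -1.5 and 1.59 and missed the threshold (adjusted p = 0.16 and 0.13), as did those of both called Shank1 probes (adjusted p between 0.14 and 0.32). Both tests use the same 3-month mice. The Dlgap1 difference between 3 and 1 months missed the threshold when any 1 of 10 mice was left out (TgproNGF#3 mice 1 and 3 and WT mice 2, 3 and 4 of 1 month; TgproNGF#3 mouse 4 and all 4 WT mice of 3 months), whereas that of Homer1 A_55_P1982121 passed without any single mouse and was lost when dim spots were kept.

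Over the 6 groups, TgproNGF#3 at 3 months had the lowest mean at 18 of the 20 probes, as at 45.2% of the 28898 probes with a value on all arrays. It was clear of the next group, without overlap, at 6 of them: Dlg2 A_55_P2072238, Dlg4, Dlgap1 A_55_P1959728 and the 3 Homer1 probes of NM_011982. This was so at 8.46% of all these probes. In WT mice alone, 12 of the 20 probes were lower at 3 months than at both other ages, near the 53.1% of all probes, for example Dlgap1 A_51_P520650 with means of 1.99, 1.15 and 1.61 at 1, 3 and 12 months, which is a difference between slides as much as between ages. At Homer1 A_55_P1982121 the WT means were -2.61, -2.61 and -2.75 at these ages, while those of TgproNGF#3 were -3.16, -4.82 and -2.52.

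The same rule was applied to other genes of the postsynaptic density. In a list of 48 scaffolds, adaptors, adhesion molecules and binding partners, with the brightest probe of each gene, 1 gene was called higher and none of those reported here lower at 3 months by limma, and none was called at 1 month or 12 months. At an unadjusted p below 0.05, 8 of the 48 genes were lower and 3 higher at 3 months. Over all 15708 genes with a symbol tested at 3 months, taken by their brightest probe, 3.35% were called lower and 0.777% higher, and 15.3% were lower and 9.59% higher at an unadjusted p below 0.05, so the counts of the list lay near these shares. The median Log2 FC of the list at 3 months was -0.14, beside -0.05 over all genes by their brightest probe. The scaffold median of -0.51 counts every probe, so it is not on the same footing. By the brightest probe of each scaffold gene, Log2 FC was -1.64 for Dlg4, -1.31 for Shank1 and -0.51 for Dlg1. It was -0.29 (Shank2), -0.27 (Dlg3), -0.18 (Dlgap1), -0.12 (Homer1), -0.05 (Dlg2) and 0.20 (Shank3). Dynll1, the dynein light chain that binds the guanylate kinase-associated proteins, was the gene called higher (-1.03 ± 0.41 and -2.06 ± 0.05, SD, n = 4 each; Log2 FC 1.03, SE 0.20, limma adjusted p = 0.016). Without TgproNGF#3 mouse 1 or 3 no gene of the list was called, without TgproNGF#3 mouse 2 there were 2, and without WT mouse 2 there were 4.

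At an adjusted p below 0.05 in place of the fold rule, 3 genes of the list were lower and 1, Dynll1, higher at 3 months, beside 4.49% and 2.06% of all genes. The lower genes, named here after their values were seen, were Cacng8, an auxiliary subunit of AMPA receptors (Log2 FC -0.997, adjusted p = 0.0032), Cnksr2, a Ras pathway scaffold (-0.90, adjusted p = 0.017), and Nlgn3, a postsynaptic adhesion molecule (-0.89, adjusted p = 0.031). The groups did not overlap at 6 genes with TgproNGF#3 lower and at 2 with TgproNGF#3 higher, beside 11.7% and 7.59% of all genes. At 12 months they did not overlap at 9 genes with TgproNGF#3 higher, beside 10.2% of all genes, and among the scaffold probes at 4, those of Dlg3, Dlgap1 (A_52_P443073 and A_55_P1959728) and Homer1 (A_55_P1982111). Over all probes 7.42% did so in that direction at 12 months. At this age all 8 neuronal markers had a Log2 FC above 0 (median 0.24), and their summed level ranged from 146.2 to 161.8 in TgproNGF#3 and from 122.4 to 144.7 in WT mice, without overlap. The 3 CA1 markers were also all above 0 (sums of 15.95 to 18.9 and of 10.6 to 16.8), and 4 of the 7 leptomeningeal markers were called lower (sums of 6.19 to 10.5 and of 7.33 to 10.8). Below 0 were all 7 choroid plexus, 7 of 8 oligodendrocyte, 6 of 8 microglial, 5 of 8 astrocyte and 4 of 7 endothelial markers. Of the 4 dentate granule neuron markers 2 were below 0, with C1ql2 called lower (Log2 FC -1.05) and Calb1 at 0.73. The 2 blood and 2 CA3 markers tested were above 0. The part of these markers in the 12-month values was not tested.

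**Figure D4:**
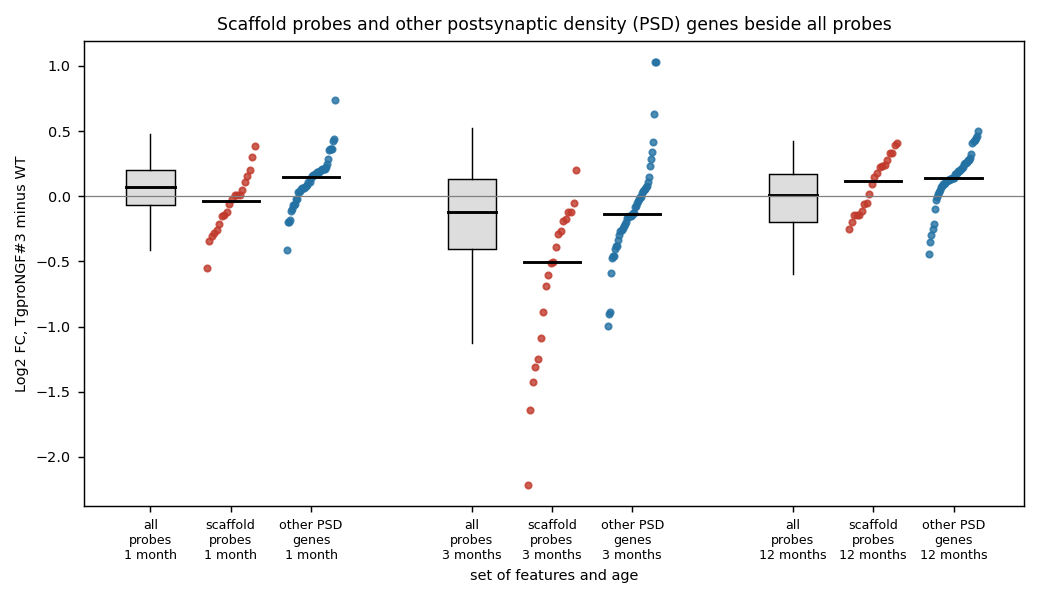
Log2 FC (TgproNGF#3 minus WT) by age of all probes tested (box: quartiles and median; whiskers: the central 90%), of the 20 scaffold probes (red) and of the 48 other postsynaptic density genes, 1 probe per gene (blue), with black bars at the medians. At 3 months the scaffold median lies at -0.51 over all 20 probes, beside -0.12 for all probes. It is -0.14 for the other genes, which are taken by their brightest probe only.

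TgproNGF#3 mouse 4 of 3 months stood apart: 57.6% of its spots were well above background, beside 61.9% to 64.7% in the other TgproNGF#3 mice and 62.9% to 64.1% in the WT mice, and it was the lowest TgproNGF#3 mouse at 14 of the 20 scaffold probes. Without it, 4 scaffold probes were still called lower, beside 4.71% of all probes, and the scaffold median was -0.30 beside -0.06. Among the markers of cell types at 3 months, the summed level of 8 oligodendrocyte markers ranged from 71.3 to 82.3 in TgproNGF#3 and from 54.2 to 69.7 in WT mice, on the linear scale relative to the 75th percentile, with 5 of the 8 above 0 in Log2 FC. The sum of 8 neuronal markers ranged from 87.0 to 121.6 and from 97.4 to 141.8, with 4 of the 8 below 0, and that of 3 CA1 markers from 10.99 to 18.1 and from 14.8 to 19.2, with 2 of the 3 below 0. The sum of 8 astrocyte markers ranged from 81.9 to 97.7 in TgproNGF#3 and from 94.0 to 138.4 in WT mice, with 6 of the 8 below 0. The sum of 7 choroid plexus markers ranged from 6.15 to 133.7 and from 72.7 to 111.1, with all 7 below 0, and that of 7 leptomeningeal markers from 5.28 to 9.38 and from 4.71 to 7.91, with all 7 above 0. The sums of the microglia, endothelium, blood, dentate granule neuron and CA3 markers overlapped between genotypes, and of all 11 lists only the oligodendrocyte sums did not. Of single markers, 4 passed an adjusted p below 0.05 at 3 months: endothelial Cdh5, which was called lower (Log2 FC -2.07, adjusted p = 0.013), neuronal Map2 (-0.93, adjusted p = 0.0061), CA1 Fibcd1 (-0.93, adjusted p = 0.0094) and, higher, oligodendrocyte Opalin (0.73, adjusted p = 0.04999). Apart from 1 CA3 marker that was never above background at 3 months, and Hbb-bs of the blood list, which had no probe by symbol, all markers gave values. The part of these differences in the scaffold values was not tested.

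By the shape of the values over the 22 arrays, the genes most like Dlg4 A_55_P2008053 among 28898 probes with a value on all arrays were Lmnb1 (Pearson r = 0.864), Ttc5 (0.848) and Tet2 (0.845). Those most like Homer1 A_55_P1982121 were Braf (0.956), Norad (0.950) and Map1b (0.947). The Log2 FC of the latter at 3 months was -2.40, -2.61 and -4.78. Within groups, as deviations from the mean of each group, these r values were 0.878, 0.710 and 0.671 for Homer1, and 0.821, 0.587 and 0.560 for Dlg4. The arrays share slides and scaling, and the r values are descriptions.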

How the data were processed

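Right hippocampi of 22 mice were profiled on Agilent single-color mouse arrays (62976 spots, of which 59305 were not controls). Per the file headers, the deposited scanner intensity values were extracted, background-corrected and summarised per spot by Feature Extraction 10.7.3.1, and they were not normalized between arrays. The authors also deposited a table of log2 values, which followed log2 of the scanner intensities up to a constant per array (SD at most 0.0066 over probes) and was used as an alternative. The medians of its columns lay between 9.41 and 9.73, and the study's methods describe an alignment to the 75th percentile; what was added to each column is not given in the sources used here. The background filter and the scale of the report follow the study's methods, and the removal of outlier spots was added here: spots that were controls, outliers or not well above background were left out, the 75th percentile of log2 intensity was subtracted from each array, and spots of a probe were averaged. Probes with at least 2 values per group were tested per age with limma 3.58.1 (R 4.3.3), without covariates, two-sided, with Benjamini-Hochberg adjustment over all probes tested. Groups were taken from the sample labels, and replicates are separate mice. The TgproNGF#3 and WT arrays of an age shared a slide. At 1 month the WT arrays lay in columns 1 and 2 of the slide and the TgproNGF#3 arrays in columns 3 and 4. Genotype and column cannot be told apart at that age. At 12 months all TgproNGF#3 arrays and WT mouse 3 lay in row 2, while WT mice 1 and 2 lay in row 1. At 3 months each genotype was spread over both rows and all columns. The part of the column was not tested.

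Probes were tied to genes through RefSeq accessions. The symbol could be assigned to 27971 probes, and 96 probes with symbols of 2 genes in different design versions were left unnamed. Of each gene the brightest probe and every called probe were given with all mice; of the other postsynaptic density genes, the called genes. One gene of that list is not reported here and was left out of its counts. The members and lists were chosen with earlier results of these data known. The scripts were tested on simulated data. The number of arrays limits the precision. Same-numbered TgproNGF#3 and WT arrays of 1 month deviated together from their group means (r between 0.191 and 0.511 for the 4 pairs) and lay in the same row of the slide, so they were treated as pairs in a fit with a replicate block. Between differently numbered arrays of that age r ranged from -0.565 to 0.356, and the highest of these lies within the range of the same-numbered pairs. Same-numbered arrays of 3 months also lay in the same row but did not deviate together (r between -0.356 and -0.0234), nor did those of 12 months (r between -0.316 and 0.0503). Alternatives covered filters, scaling, background correction (normexp on median signals, offset 50), the authors' log2 values, blocks, the samples fitted, thresholds and leaving out each mouse.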

Additional observations from a re-analysis of the deposited data

Results flagged for a closer look

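In 80 groups of 4 mice (20 probes, 4 groups), 3 held a mouse far from the others of its group, and chance alone marks about 1 group in 20. Dlg1 A_55_P1957900 read -0.46 in WT mouse 3 of 3 months, while the nearest of the other WT mice read -1.05. Dlgap1 A_52_P443073 read -0.030 in TgproNGF#3 mouse 4 of 1 month, while the nearest read 0.53. Homer1 A_55_P1982121 read -2.12 in WT mouse 3 of 1 month, while the nearest read -2.73. Without that mouse the Log2 FC of the probe at 1 month was -0.39 (unadjusted p = 0.057, limma).

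The genotype effect differed between ages, by the limma test of the difference itself, at 4 probes. Between 3 and 1 months the Log2 FC changed by -1.67 at Homer1 A_55_P1982121 and by -0.81 at Dlgap1 A_55_P1959728. Between 12 and 3 months it changed by 2.46 at Homer1 A_55_P1982121, by 1.57 at A_55_P2122789, by 1.36 at A_55_P1982122 and by 1.02 at Dlgap1 A_55_P1959728. The ages also differ in slide and, at 12 months, in sex, and the part of these was not tested.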

How the results depend on the processing

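All 114 recomputed 3-month values of the 6 called scaffold probes stayed below 0. These probes were picked for their low Log2 FC in the same arrays, so this outcome was nearly fixed beforehand and is no support. The count of 6 ranged from 4 to 7 when single mice were left out and was 5 with normexp and 6 with the replicate block; no alternative gave a called scaffold probe at 1 or 12 months. Homer1 A_55_P1982121 and A_55_P2122789 were called under all 20 alternatives, Dlg4 and Shank1 A_55_P1994554 under 19, Shank1 A_55_P1994550 under 18 and Homer1 A_55_P1982122 under 16. The other postsynaptic density genes called at 3 months (1) numbered 0 with normexp and 4 at an adjusted p below 0.05, and 0 to 4 when single mice were left out. Scaffold probes differing from the others of their gene at 3 months (4) numbered 1 with the replicate block and 2 with diffSplice, and 1 to 5 when single mice were left out. Probes whose genotype effect differed between 3 and 1 months (2) numbered 0 with dim spots kept and 1 with arrays aligned to their median, with quantile normalization, with the replicate block or with only the arrays of these ages, and 1 to 4 without single mice; Homer1 A_55_P1982121 passed in 25 of the 26 alternatives. Between 12 and 3 months (4) it was 2 with only the arrays of these ages, 3 with the replicate block, and 2 to 6 without single mice. Without TgproNGF#3 mouse 3 of 3 months these were 4 and 6, and without TgproNGF#3 or WT mouse 2 of 12 months the latter was 2. The replicate block, taken as a pairing of mice at 1 month only, changed no call there; at 3 months same-numbered mice shared a row of the slide but did not deviate together, and with the array row as a block the count of scaffold probes called was again 6. The causes of these changes were not tested.

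Of 218 recomputed counts, 188 kept their side or size. None of the called values, which were picked for their size, changed sign, while 81 values of probes not called did. Over all probes, the share of lower among called probes was 57.6% at 1 month and 76.1% at 12 months and ranged from 39.4% to 83.3% and from 44.8% to 85% under the other scalings and filters, so no direction is read at these ages.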
